A study of Homo sapiens with 65 samples.

Results

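Cardioids are small heart-like spheres grown from human pluripotent stem cells, here from the established induced pluripotent line WTC-11. The samples described are the hyaluronidase-treated cardioids of the left ventricular (LV) protocol at day 2.5 and day 4.5, with the enzyme present from day 1.5: 3 libraries titled HAse d1.5-2.5 and 3 titled HAse d1.5-4.5, which makes 6 of the 65 libraries of the series. Hyaluronidase is an enzyme that cuts hyaluronan, so the comparison asks which genes such cardioids still switched on and off over 2 days. Each library pooled RNA from 8 cardioids, and the 3 replicates of a day carry the line names TNNI1, WT and TNNT2, which pair the days. The labels do not say what the line names stand for, and the lines TNNI1 and TNNT2 share their names with muscle genes reported below. The labelled genotype of all 6 libraries is WT and the labelled cell type is cardiac progenitor.

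All groups used here were induced to mesoderm from day 0 to day 1.5 with FGF2, LY294002, Activin A, BMP4 and CHIR99021, then dissociated and reseeded at day 1.5. They next received BMP4, FGF2, insulin, retinoic acid and C59, an inhibitor of WNT secretion, with a ROCK inhibitor until day 2.5, and a second patterning medium from day 3.5. Day 4.5 therefore differs from day 2.5 by a change of medium as well as by age, and enzyme exposure had lasted 1 day at the first time and 3 days at the second. The labels give no enzyme dose and no measurement of hyaluronan. Untreated WT cardioids of the same 3 lines and days (3 libraries a day) were the reference. HAS2-KO cardioids (6 libraries a day, 4 clones), which lack the main hyaluronan synthase, with their own WT libraries (6 a day), came from a separate part of the series, whose WT libraries include the names WT and TNT2.

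Hyaluronan is a very large sugar polymer of the pericellular matrix, made at the cell membrane by HAS enzymes and bound by versican, link proteins and receptors such as CD44. In the early heart it fills the cardiac jelly between the muscle and the inner lining, and embryos without Has2 fail to form this space. Cardiac mesoderm leaves the primitive streak with MESP1, takes up the transcription factors GATA4, NKX2-5, TBX5, HAND2 and MEF2C, and then expresses the sarcomere, the contractile unit of striated muscle, with the channels and pumps that move calcium.

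Gene counts from 3′ mRNA sequencing summed to 1157056 to 1718211 in the 6 enzyme libraries and to 1118200 to 1958263 in the 6 untreated ones. Levels are CPM, counts scaled to a common library total, log2 fold changes compare day 4.5 with day 2.5, and a gene was called at an adjusted p of 0.05 in edgeR's quasi-likelihood test with the line as a block. Over the enzyme step 1614 genes were higher and 1552 lower, which is 12.7% and 12.2% of the 12748 genes tested. The untreated step called 1651 genes higher (13%) and 1535 lower (12%). Of the genes higher in the enzyme step, 892 were also called higher in the untreated step, 55.3% of the enzyme list and 54% of the untreated list. For lower genes the shared number was 936, or 60.3% and 61%. The difference of the 2 steps was called for 105 genes that moved more upward with enzyme (0.824%) and for 43 that moved more downward (0.337%). The counts rest in part on single lines: without line WT the enzyme step called 1632 genes and without line TNNT2 1755. The 2-day steps of the untreated cardioids here and of the WT cardioids of the other part gave no call of a difference (0% in either direction), with 1337 genes at an unadjusted p under 0.05, 17 calls in DESeq2 and 70 in edgeR with no filter on low counts.

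The enzyme library of line WT at day 2.5 stood apart from its 2 partners. Its counts differed from theirs by 12.4 and 14.2 times the sampling variance, where theirs differed from each other by 3.12 times, and its mitochondrial share was 1.409% against 0.578% and 0.396%. Without it the enzyme step called 2463 genes, and 2174 of these were called in the same direction with it. The 3 lines also differed at day 4.5. Summed CPM of the 42 sarcomere genes in the list went from 2429, 2516 and 2258 in lines TNNI1, WT and TNNT2 to 8613, 27370.3 and 14072, while untreated cardioids went from 4300.2, 4742 and 6094 to 70604, 44763 and 38083. Line WT was the most advanced enzyme library by this sum and line TNNI1 the least, whereas line TNNI1 was the highest untreated library. In all that follows, 3 values in a row are CPM in lines TNNI1, WT and TNNT2.

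**Figure D1:**
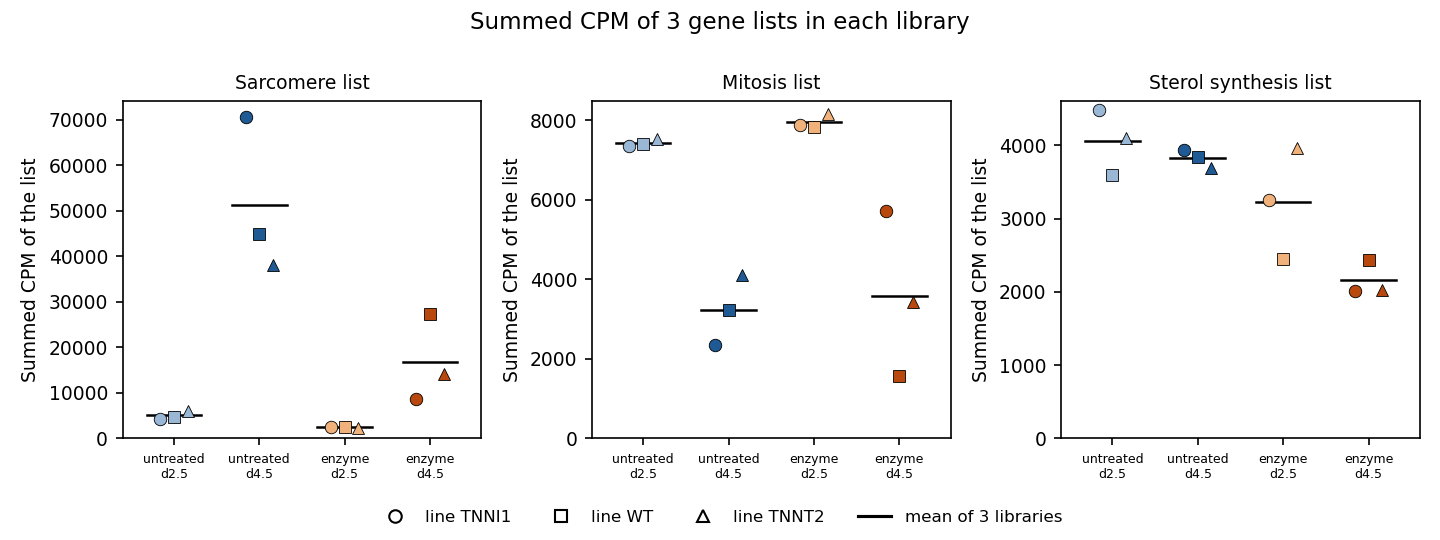
Summed CPM of the sarcomere, mitosis and sterol synthesis lists (vertical axis, linear scale) in each library of the enzyme and untreated groups at day 2.5 and day 4.5, with one symbol per line and a bar at the mean. The enzyme libraries of day 4.5 lie below all untreated ones for the sarcomere and sterol sums and overlap them for mitosis.

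Markers of early heart cells were detected on both days. Summed CPM of 6 cardiomyocyte markers went from 1240.0 to 1460.0 at day 2.5, with MYH6 and ACTN2 at 0 counts, to 4920.0 to 17700.0 at day 4.5. Untreated cardioids had 2550.0 to 3350.0 at day 2.5 and 21900.0 to 43000.0 at day 4.5. TTN, given below, made up most of the enzyme sums on both days, and TNNT2 had hardly any counts at day 2.5. The 8 cardiac progenitor markers went from 581 to 1820.0 up to 2210.0 to 2970.0, beside 1140.0 to 1850.0 and 1910.0 to 2160.0 untreated. HAND1, given below, was a large part of the day 2.5 enzyme sums. The 3 streak markers went from 158.0 to 356.0 down to 8.64 to 72.6, beside 66.2 to 118.0 and 9.04 to 20.4 untreated. Such sums do not establish the labelled cell type. In bulk samples fewer cells of a type and less RNA per cell cannot be told apart, which holds for every level given here.

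Most tested genes of the primitive streak and of pluripotency fell, but the lists as a whole did not go off. Summed CPM of the 24 streak and nascent mesoderm genes went from 5245, 3207 and 4565 to 1808, 348 and 1020 with enzyme. Untreated cardioids went from 1835, 1490 and 1440 to 237, 155 and 145. At day 4.5, 4 of 11 tested genes lay above all untreated libraries and 1 below (12.7% and 8.87% of all genes). At day 2.5, 8 lay above and none below (6.79% and 6.7%). Of 11 tested streak and nascent mesoderm genes 9 fell and none rose, with a median log2 fold change of −3.30 where the median of all genes was 0.02. EOMES, a T-box factor of the streak, had 327, 134 and 322 CPM at day 2.5 and 68.3, 0.864 and 11.1 at day 4.5 (log2 fold change −3.86, SE 0.54, adjusted p = 3.32e-05). The decline was present in every line, and it was least complete in line TNNI1. MESP2 went from 85.8, 35.1 and 56.2 to 0.621, 0.864 and 0, a ratio of 135 with an exact 95% counting interval of 36.9 to 1120.0, and its relative MESP1, which marks the first cardiac mesoderm, from 41.9, 35.1 and 27.5 to 7.45, 4.32 and 0.582 (log2 fold change −3.45, SE 0.77, adjusted p = 0.00193). Untreated cardioids already had little of either at day 2.5, with 4.6, 2.68 and 1.12 for MESP2 and 5.11, 2.68 and 2.24 for MESP1, and every enzyme library lay above them. MIXL1, a homeobox factor of the streak, fell with enzyme from 21.3, 24 and 28.1 to 3.72, 7.78 and 6.98 (log2 fold change −2.19, SE 0.478, adjusted p = 0.00159) and read 3.57, 7.15 and 12.3 at day 2.5 and 6.82, 20.4 and 7.65 at day 4.5 without it, where its step was not called (adjusted p = 0.585). None of the 11 genes had a called difference between the steps in edgeR, beside 1 in DESeq2, 3 with no filter on low counts and 2 without the day 2.5 enzyme library of line WT.

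Secreted antagonists and receptors of this stage fell with the transcription factors. APLNR, the apelin receptor of migrating mesoderm, went from 632, 726 and 628 to 57.1, 114 and 58.8 (log2 fold change −3.3, SE 0.35, adjusted p = 1.05e-06). DLL3, a Notch ligand family member, went from 261, 41.5 and 182 to 18.6, 13 and 9.89 (log2 fold change −3.64, SE 0.499, adjusted p = 1.47e-05). For both, all 3 enzyme libraries still lay above all 3 untreated ones at day 4.5, where untreated values were 53.9, 36.4 and 48 and 8.87, 1.78 and 4.87. CER1, which blocks Nodal, BMP and WNT, fell to 1 count (53.5, 2.4 and 20.0 CPM, then 0, 0 and 0.582, a ratio of 118 with an interval of 20.7 to 4690.0). LEFTY2, a Nodal inhibitor, read 106, 11.2 and 51.8 at day 2.5 and 0, 0 and 4.07 at day 4.5 (log2 fold change −5.17, SE 0.73, adjusted p = 1.34e-05).

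Of 14 tested pluripotency genes 11 fell in the enzyme step and 11 in the untreated step, with medians of −1.92 and −1.65. Summed CPM of the 20 listed genes went from 2273, 1881 and 2095 to 1247, 877 and 1057 with enzyme. Untreated cardioids had 681, 806 and 907 at day 4.5. There 5 of the 14 lay above all untreated libraries and none below (12.7% and 8.87% of all genes). POU5F1, a core factor of pluripotent cells, had 57.7, 71.1 and 51.8 CPM at day 2.5 and 4.34, 0 and 5.24 at day 4.5 (log2 fold change −4.29, SE 0.729, adjusted p = 0.000209). Its untreated values of 53.6, 66.2 and 50.5 at day 2.5 and 0, 1.78 and 2.09 at day 4.5 overlapped these on both days. DNMT3B, a DNA methyltransferase of early embryonic cells, fell to a higher floor, from 286, 267 and 277 to 113, 65.7 and 89.6 (log2 fold change −1.79, SE 0.224, adjusted p = 2.93e-06), and ZFP42 went from 19.2, 16 and 25.6 to 2.48, 0 and 2.91 (log2 fold change −3.6, SE 0.764, adjusted p = 0.00258). The steepest falls outside these lists included the metallothioneins, which bind zinc and copper. MT1G went from 49.4, 58.3 and 84.9 to 0, 0 and 1.16 and MT2A from 94.7, 88.7 and 167 to 4.34, 3.46 and 8.15 (log2 fold change −4.58, SE 0.511, adjusted p = 6.74e-07), and at day 2.5 every enzyme library had exceeded every untreated one, which held 7.66, 4.47 and 4.49 for MT1G and 23, 23.3 and 39.3 for MT2A. Metallothionein genes are near-identical copies, so counts may be split between them. CD177 fell from 29.5, 13.6 and 22.5 CPM to 0 counts, which is at least 33.3-fold lower against a floor of 3 counts over the group. The growth regulator MYCN fell from 28.8, 27.2 and 29.4 to 4.34, 0.864 and 0.582 (log2 fold change −4.26, SE 0.793, adjusted p = 0.000359), and LOXL4, a collagen crosslinking enzyme, from 33.6, 20.0 and 25 to 0.621, 0 and 4.66 (log2 fold change −3.95, SE 0.673, adjusted p = 0.000138). OLFM1 and MT1X also fell, by 4.98 and 4.18 on the log2 scale.

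The cardiac transcription factors came on. Of 27 tested, 15 rose and none fell, against 16 that rose and 3 that fell in untreated cardioids. Without the day 4.5 enzyme library of line TNNI1, or with no filter on low counts, 2 fell. The median of 1.82 became 1.36 when genes with no count at day 2.5 were put at their bound. NKX2-5, a homeobox factor of heart precursors, rose from 16.5, 43.9 and 28.1 to 181, 351 and 276 (log2 fold change 3.03, SE 0.44, adjusted p = 6.25e-05), beside 519, 362 and 231 in untreated cardioids at day 4.5. The groups overlapped there. MEF2C, a MADS-box activator of muscle genes, rose from 2.06, 44.7 and 7.49 to 451, 965 and 884 (log2 fold change 5.33, SE 0.641, adjusted p = 1.53e-05), GATA4 from 53.5, 87.9 and 54.3 to 209.8, 273 and 279.9 (log2 fold change 1.81, SE 0.201, adjusted p = 6.27e-07) and MEF2A from 44.6, 47.1 and 39.3 to 248, 373 and 295 (log2 fold change 2.64, SE 0.208, adjusted p = 4.65e-09). All of these overlapped the untreated values at day 4.5.

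TBX5, the T-box factor of the left ventricle and atria, started lower than untreated and ended lower. It had 2.75, 7.19 and 1.87 CPM at day 2.5 against 45.4, 59 and 46.5 untreated, and 51.5, 109.8 and 41.9 against 226, 177 and 199.6 at day 4.5, with no overlap on either day. Its enzyme step was steeper on the log2 scale (3.92 against 1.9), but the difference of steps was not called (adjusted p = 0.059), and 4 of 20 alternatives called it. ISL1, which marks second heart field and other progenitors, rose from 55.6, 83.1 and 77.4 to 306, 203 and 449.9 (log2 fold change 1.96, SE 0.449, adjusted p = 0.00357, and up to 0.137 without line TNNT2), while untreated cardioids went from 95, 79.6 and 87.5 to 45.7, 73.7 and 96.7. At day 4.5 every enzyme library was above every untreated one. HAND1 was not called in either step, with 287, 1248 and 319 at day 2.5 and 583, 316 and 613 at day 4.5 CPM (adjusted p = 0.566), and line WT was the highest at day 2.5 and the lowest at day 4.5. The ventricular factor IRX4 had counts in a single enzyme library, 0, 6.91 and 0 at day 4.5.

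Sarcomere genes came on, and most stayed below the untreated level. Of 41 tested genes 22 rose and 2 fell, with a median log2 fold change of 2.88 (2.71 with genes at no count put at their bound). In untreated cardioids 35 rose and 1 fell, with a median of 4.72 (3.97). At day 4.5 all 3 enzyme libraries lay below all 3 untreated ones for 30 of the 41 genes, a position held by 8.87% of all genes tested, and for none were they all above (12.7% of all genes). The 22 risers stood at 3.41% to 65.6% of the untreated mean, with a median of 23.1%. No sarcomere gene had a called difference between the steps in edgeR, but DESeq2 called 5 of them lower with enzyme and edgeR with no filter on low counts 8. A lower call of 1 gene came without the line block, in a fit on the compared libraries alone, without the day 4.5 enzyme library of line WT and without the day 4.5 untreated library of line TNNT2. At day 2.5, 15 of the 41 were below all untreated libraries and 2 above (6.7% and 6.79% of all genes), and 11 were below on both days.

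**Figure D2:**
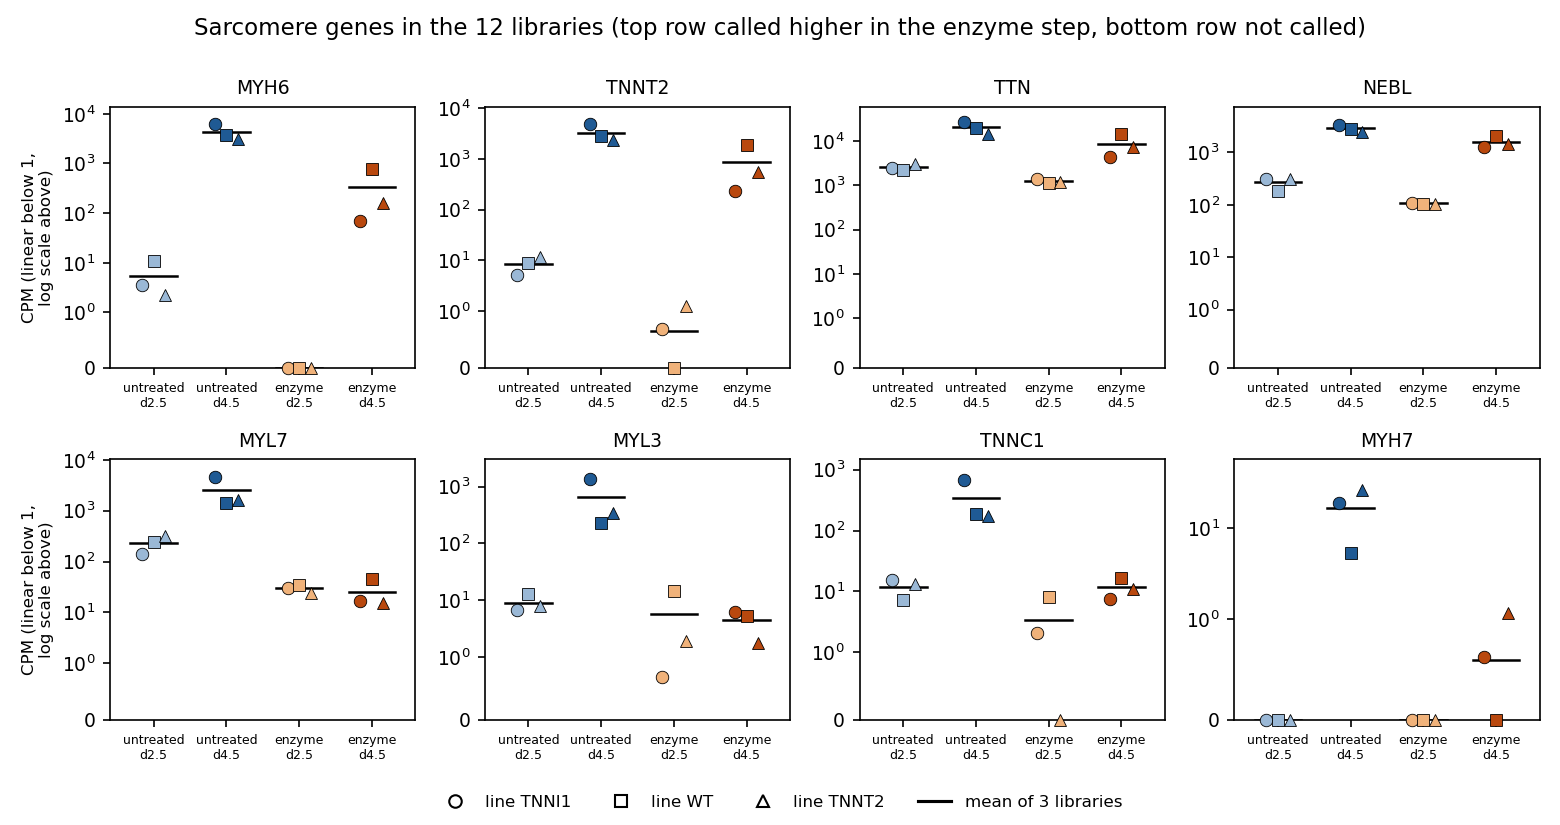
CPM of 8 sarcomere genes (vertical axes, log scale above a linear stretch near 0) in the enzyme and untreated groups at both days, one symbol per line with a bar at the mean. The upper row shows MYH6, TNNT2, TTN and NEBL, which rose with enzyme, and the lower row MYL7, MYL3, TNNC1 and MYH7, which were not called with enzyme and rose without it.

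MYH6, the alpha myosin heavy chain (ENSG00000197616, chromosome 14, 23381990 to 23408277 on the minus strand), had no count in any enzyme library at day 2.5 and 69.5, 770.1 and 162 CPM at day 4.5, at least 410-fold higher against a floor of 3 counts over the group (adjusted p = 0.000158). Untreated cardioids went from 3.57, 10.7 and 2.24 to 6218, 3654 and 3164. The enzyme libraries were thus below the untreated ones on both days, and line WT had by far the most of the 3. TNNT2, the cardiac troponin T (ENSG00000118194, chromosome 1, 201359008 to 201377762 on the minus strand), went from 0.686, 0 and 1.25 to 237, 1866 and 544, a ratio of 1110.0 with an interval of 381 to 5400.0, and untreated from 5.11, 8.94 and 11.8 to 4778, 2828 and 2303. TTN, the giant protein that spans the sarcomere (ENSG00000155657, chromosome 2, 178525989 to 178830802 on the minus strand), was abundant from the start and rose from 1412, 1159 and 1212 to 4406, 14638 and 7171 (log2 fold change 2.63, SE 0.334, adjusted p = 7.8e-06). Line WT overlapped the untreated range of 26569.9, 19479.7 and 14492 there. NEBL, a thin-filament protein of heart muscle, rose from 109.8, 104 and 106 to 1252, 2079 and 1475 (log2 fold change 3.75, SE 0.244, adjusted p = 2.36e-10) against 3351, 2821 and 2444 untreated.

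Thin-filament and assembly genes rose too. TNNI1, the slow troponin I of the embryonic heart, rose from 4.12, 24 and 6.25 to 229, 1203 and 613 (log2 fold change 5.71, SE 0.603, adjusted p = 3.28e-06), and here line WT reached the untreated range of 1503, 1085 and 1072. ACTC1, cardiac actin, rose from 8.92, 33.6 and 30.6 to 129, 583 and 223 (log2 fold change 3.45, SE 0.636, adjusted p = 0.000903) and stayed far under 3842, 2017 and 2003. TPM1, a tropomyosin, rose from 108, 312 and 126 to 1254, 3509.8 and 2381 (log2 fold change 3.53, SE 0.42, adjusted p = 6.42e-06). Genes with no count at day 2.5 included ACTN2, the Z-disc alpha-actinin, with 14.3, 33.7 and 36.1 CPM at day 4.5, and UNC45B, a myosin chaperone, with 32.3, 154 and 62.9, at least 108-fold higher. SMYD1, a methyltransferase needed for sarcomere assembly, came from 0 to 16.8, 76.1 and 31.4, at least 54.1-fold higher, and SORBS2, an adaptor at the Z-disc, to 110.5, 519 and 275, at least 400.0-fold higher. For SORBS2 line WT lay above the untreated values of 416, 317 and 277 and the other 2 lines below all of them.

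Other sarcomere genes did not pass the test with enzyme although they rose without it. MYL7, the atrial regulatory light chain that the early heart tube also expresses (ENSG00000106631, chromosome 7, 44138864 to 44141332 on the minus strand), had 30.9, 34.4 and 23.7 CPM at day 2.5 and 16.8, 44.9 and 15.1 at day 4.5 (log2 fold change −0.38, adjusted p = 0.791). Untreated cardioids had 141, 237 and 317 at day 2.5 and 4688, 1409 and 1590.5 at day 4.5 (log2 fold change 3.2, SE 0.724, adjusted p = 0.00434), so the groups were apart on both days. The difference of steps, −3.58 on the log2 scale, was not called (adjusted p = 0.168), and 2 of 20 alternatives called it. MYL3, the ventricular essential light chain, read 0.686, 14.4 and 1.87 at day 2.5 and 6.21, 5.19 and 1.75 at day 4.5 with enzyme (adjusted p = 0.785) against 1384, 229 and 337 untreated at day 4.5. TNNC1, the calcium sensor of the thin filament, read 2.06, 7.99 and 0 at day 2.5 and 7.45, 16.4 and 11.1 at day 4.5 against 679, 185 and 172, and MYH7, the beta myosin heavy chain, had 0 counts at day 2.5 and 0.621, 0 and 1.16 CPM at day 4.5 against 19.1, 5.33 and 26.4. MYL9, TNNI3 and CSRP3 were also among the 17 members without a call.

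The 2 that fell, neither of them called without line WT, were TNNT1, a skeletal troponin T, from 113, 97.5 and 122 to 42.2, 1.73 and 13.4 (log2 fold change −3.12, SE 0.698, adjusted p = 0.00299, and up to 0.0542 without line WT), and TPM2 from 296, 323 and 275 to 199, 199 and 147 (log2 fold change −0.9, SE 0.249, adjusted p = 0.0102, and up to 0.101 without line WT). TNNT1 fell without enzyme too, by 3.62, while TPM2 had an untreated step of −0.02 that was not called. ACTA2, the smooth muscle actin that embryonic heart muscle uses, rose from 0.686, 0 and 3.12 to 9.93, 47.5 and 21.5 (log2 fold change 3.92, SE 0.974, adjusted p = 0.00722, and up to 0.158 without line WT), far under the untreated 824, 385 and 321.

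Proximal promoters of MYH6 and TNNT2, which came on from almost nothing, and of MYL7, which did not pass the test, are shown to compare genes of one structure that moved unlike each other. The 250 bases before each RefSeq start site are printed from 5′ to 3′ on the minus strand of GRCh38.p14, with capitals for matched motifs. The windows are chr14:23408274-23408523 for MYH6, chr1:201377681-201377930 for TNNT2 and chr7:44141333-44141582 for MYL7. GENCODE places the starts of MYH6 and TNNT2 inside these windows.
MYH6: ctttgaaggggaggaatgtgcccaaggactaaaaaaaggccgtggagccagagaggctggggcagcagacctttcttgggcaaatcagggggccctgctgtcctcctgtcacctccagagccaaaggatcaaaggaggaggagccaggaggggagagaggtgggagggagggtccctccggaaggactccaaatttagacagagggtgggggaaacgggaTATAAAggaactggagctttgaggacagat
TNNT2: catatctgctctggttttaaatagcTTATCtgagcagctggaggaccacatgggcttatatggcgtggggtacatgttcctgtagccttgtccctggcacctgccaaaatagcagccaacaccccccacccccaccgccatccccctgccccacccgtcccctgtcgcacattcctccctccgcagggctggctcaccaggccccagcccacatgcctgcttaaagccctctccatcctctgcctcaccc
MYL7: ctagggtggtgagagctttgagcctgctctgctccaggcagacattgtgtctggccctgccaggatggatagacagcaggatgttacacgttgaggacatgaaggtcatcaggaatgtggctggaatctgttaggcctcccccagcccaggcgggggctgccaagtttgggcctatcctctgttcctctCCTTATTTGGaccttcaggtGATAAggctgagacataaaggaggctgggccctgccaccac
The capitals in MYH6 mark TATAAA, which starts 30 bases upstream of the start site. Those in TNNT2 mark GATAA, a core of GATA factor sites, read on the other strand 225 bases upstream. In MYL7 they mark a CArG box, the site form of serum response factor, 61 bases upstream, and GATAA at 41. The search used 4 motifs on both strands without removal of overlaps. Over 35116 promoters of the same length TATAAA was present in 10.7%, GATAA in 20.4%, the CArG box in 1.16% and the MEF2 site in 0.515%. Of the 22 sarcomere genes that rose 18 were matched to a promoter: 2 held TATAAA, 7 GATAA, 3 the CArG box (ACTC1, LDB3 and MYOM1) and 4 the MEF2 site (MYBPC3, SMPX, SYNPO2L and TTN). Of the 17 without a call 9 were matched: 2 held TATAAA, 5 GATAA, 2 the CArG box (ACTA1 and MYL7) and 1 the MEF2 site (MYOZ2). The match is a description of letters in the window.

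Calcium handling and excitability genes came on as well. Of 22 tested genes 13 rose and 1 fell (median 2.09, or 2.04 with bounds), beside 18 and 1 without enzyme (median 4.06). RYR2, the calcium release channel of the sarcoplasmic reticulum, rose from 2.06, 16 and 4.37 to 68.9, 502 and 222 (log2 fold change 4.94, SE 0.7, adjusted p = 8.3e-05) against 923, 686 and 635 untreated. PLN, the inhibitor of the calcium pump, came from 0 counts to 14.9, 142 and 54.7, at least 90.3-fold higher, against 237, 288 and 214. SLC8A1, the sodium-calcium exchanger, rose from 2.06, 0 and 0.625 to 19.2, 188 and 43.1 (log2 fold change 6.07, SE 0.951, adjusted p = 0.000203) against 1076, 709.6 and 654, and line WT had the most. For these 3 genes no enzyme library reached the untreated range. TECRL, an endoplasmic reticulum protein linked to inherited arrhythmia, reached that range: it rose from 0, 3.2 and 0.625 to 135, 666 and 235 (log2 fold change 7.78, SE 0.554, adjusted p = 6.71e-09) beside 207, 543 and 599. The 13 risers stood at 10.2% to 230.0% of the untreated mean, with a median of 49%. At day 4.5, 14 of the 22 genes were below every untreated library and 1 was above, beside 8.87% and 12.7% of all genes. At day 2.5, 4 were below (6.7% of all genes) and 1 was above, and 4 were below on both days. The gene that fell was GJA1, the gap junction protein connexin 43, from 392, 274 and 387 to 105, 41.5 and 48.9 (log2 fold change −2.62, SE 0.345, adjusted p = 9.8e-06), and it remained above all untreated libraries (18.4, 37.3 and 36.2).

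CACNA1C, the pore of the cardiac L-type calcium channel, was the single member whose steps differed by call. DESeq2 called 4 members lower with enzyme, edgeR with no filter on low counts 5, and edgeR without the day 2.5 or the day 4.5 enzyme library of line WT, or without that line, 3. It rose from 10.3, 1.6 and 9.37 to 54.6, 27.7 and 32 with enzyme (log2 fold change 2.21, SE 0.396, adjusted p = 0.000246) and from 4.09, 0 and 2.24 to 99.6, 57.7 and 75.8 without (log2 fold change 4.86, SE 0.45, adjusted p = 7.53e-08), a difference of −2.65 (adjusted p = 0.0392). That call held in 8 of 20 alternatives and reached an adjusted p of 0.606 without line TNNT2. Its paralog CACNA1D came from 0 counts to 13, 107 and 30.8, at least 63.4-fold higher. ATP2A2, the calcium pump itself, was not called with enzyme, with 126, 86.3 and 108 at day 2.5 and 138, 204 and 139.7 at day 4.5 (adjusted p = 0.152), and rose without it (log2 fold change 1.54, SE 0.215, adjusted p = 1.16e-05). The counting is not stated to use strand, and PLN, CACNA1C, CACNA1D, TAGLN, POU5F1, MYL3, ACAT2 and the transcript ENSG00000228835 overlap a gene on the other strand, so their counts are uncertain to that extent.

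**Figure D3:**
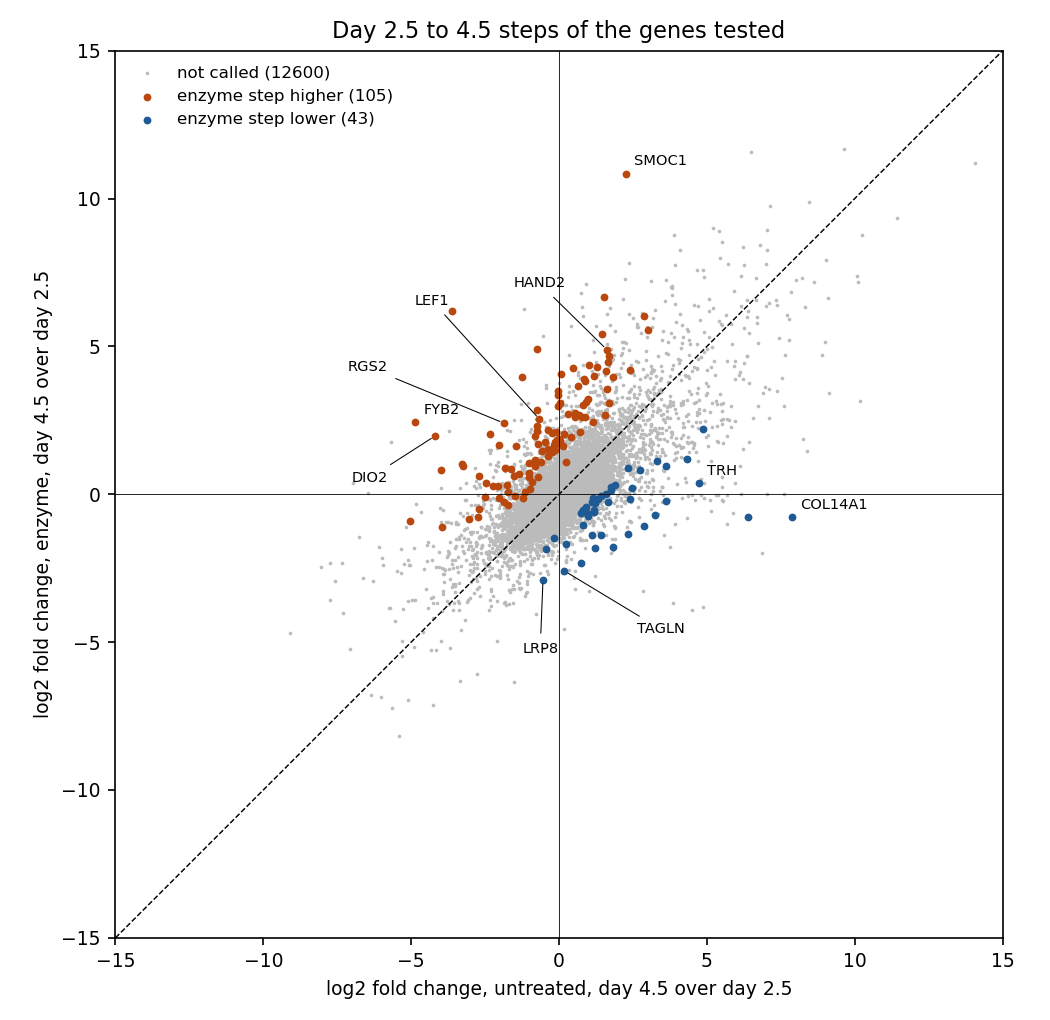
Log2 fold change from day 2.5 to day 4.5 with enzyme (vertical axis) against that without (horizontal axis) for 12748 genes, one point each. Colours mark the 105 genes whose step was higher with enzyme, the 43 whose step was lower and the 12600 whose difference was not called.

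The 105 genes that moved more upward with enzyme were of several kinds: 22 rose in both steps, 44 rose with enzyme alone by call, 13 rose with enzyme and fell without, and 26 fell only without. Many began low. At day 2.5, 83 of the 105 had all 3 enzyme libraries below all untreated ones (6.7% of all genes). At day 4.5, 66 had them all above (12.7% of all genes), with 44 doing both. Since both days enter the difference, these placements describe the calls and add no test to them. Of the 43 that moved more downward, 25 rose only without enzyme, 8 fell with and rose without, 6 fell only with enzyme and 4 rose in both. Of these 21 were above untreated at day 2.5 (6.79% of all genes), 31 below at day 4.5 (8.87% of all genes) and 10 both.

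HAND2, a basic helix-loop-helix factor of heart and limb mesenchyme (ENSG00000164107, chromosome 4, 173524969 to 173530229 on the minus strand), went from 6.86, 37.5 and 30.6 to 781, 629 and 1150.0 with enzyme (log2 fold change 4.89, SE 0.378, adjusted p = 1.66e-08) and from 48.5, 54.6 and 70.7 to 177, 148 and 267 without (log2 fold change 1.62, SE 0.331, adjusted p = 0.00111). It was below every untreated library at day 2.5 and above every one at day 4.5, and the steps differed by 3.27 (SE 0.484, adjusted p = 0.0012). LEF1, a DNA-binding effector and target of WNT signalling (ENSG00000138795, chromosome 4, 108047545 to 108168956 on the minus strand), rose from 11, 55.9 and 53.7 to 263, 171 and 306 (log2 fold change 2.54, SE 0.377, adjusted p = 4.88e-05), while untreated values were 85.3, 155 and 172 at day 2.5 and 56.6, 114 and 114 at day 4.5 (adjusted p = 0.179), a difference of 3.2 (SE 0.514, adjusted p = 0.00219). It crossed the untreated libraries in the same way as HAND2. WNT5A, a WNT ligand that mostly acts outside the beta-catenin route, rose from 48.7, 63.9 and 53.1 to 118, 210.0 and 217 (log2 fold change 1.54, SE 0.235, adjusted p = 3.73e-05) beside 103, 105 and 92.5 at day 2.5 and 75.1, 86.1 and 90.4 at day 4.5, with a difference of 1.92 (adjusted p = 0.00236). Of 13 tested WNT genes 3 rose with enzyme and none fell, beside 2 and 1 without. Of all genes 12.7% rose and 12.2% fell with enzyme. LEF1 and WNT5A were the 2 WNT genes with a called difference, both higher with enzyme (0.824% of all genes). The calls of HAND2, LEF1 and WNT5A held in 19 of 20 alternatives each and were lost without line TNNT2, at adjusted p of 0.213, 0.224 and 0.206.

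**Figure D4:**
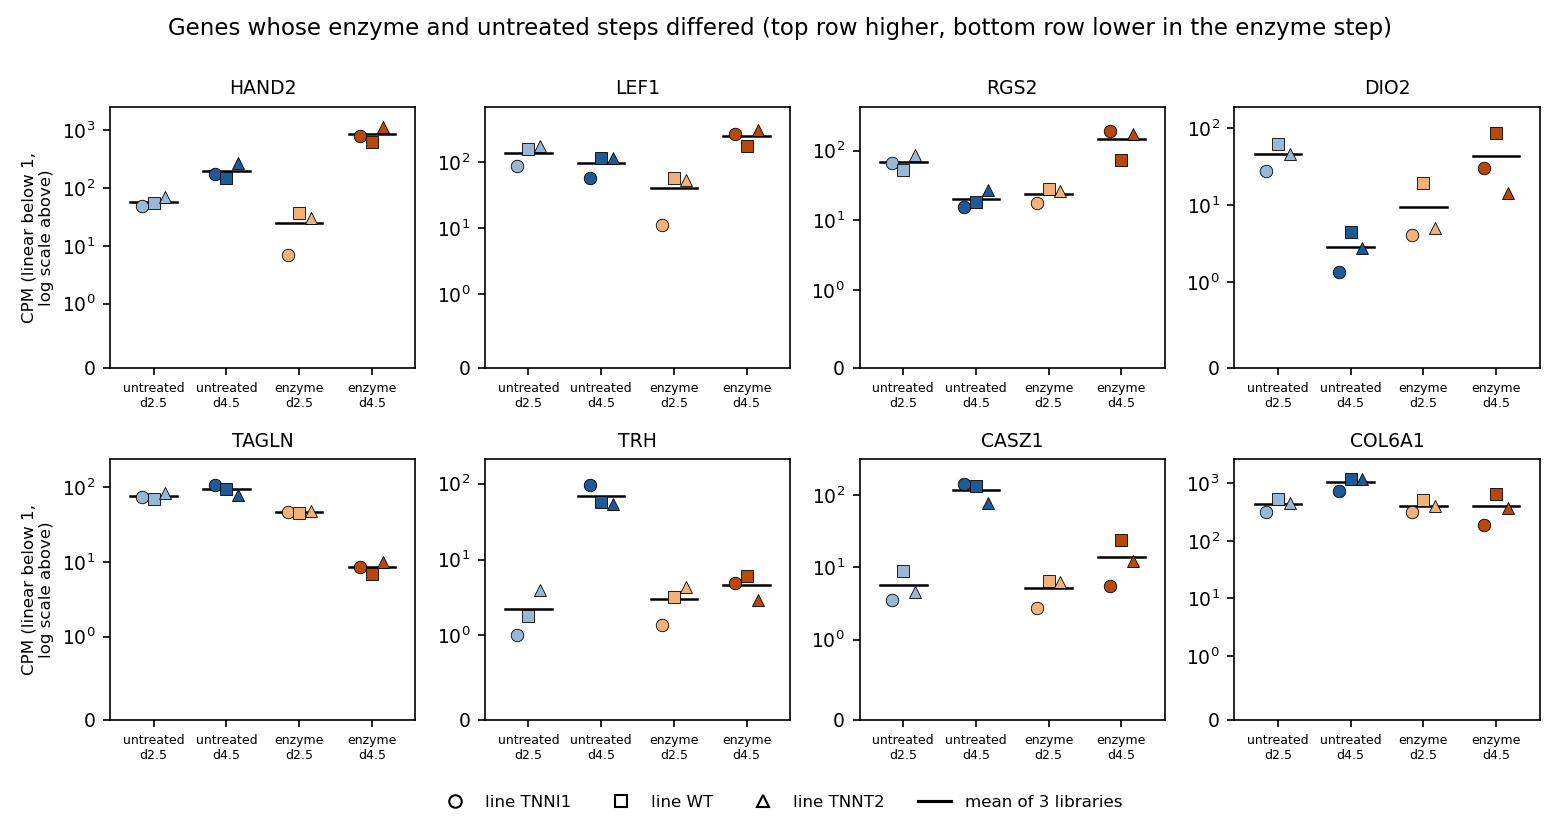
CPM of 8 genes whose steps differed (vertical axes, log scale above a linear stretch near 0), in enzyme and untreated groups at both days, one symbol per line with a bar at the mean. HAND2, LEF1, RGS2 and DIO2 in the upper row rose with enzyme and were higher than untreated at day 4.5, and TAGLN, TRH, CASZ1 and COL6A1 in the lower row were lower than untreated at day 4.5.

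RGS2, which shortens G-protein signals (ENSG00000116741, chromosome 1, 192809039 to 192812283 on the plus strand), went from 17.8, 28 and 26.2 to 192, 74.3 and 176 with enzyme (log2 fold change 2.41, SE 0.339, adjusted p = 1.3e-05) and from 66.9, 52.8 and 85.8 to 15.7, 18.6 and 27.1 without (log2 fold change −1.87, SE 0.345, adjusted p = 0.000302). The difference was 4.28 (SE 0.484, adjusted p = 6.46e-05). DIO2, the deiodinase that activates thyroid hormone, read 4.12, 19.2 and 5 at day 2.5 and 30.4, 85.6 and 14.6 at day 4.5 (log2 fold change 1.97, SE 0.551, adjusted p = 0.0108, and up to 0.114 without the day 4.5 enzyme library of line WT) against 28.1, 62.6 and 46.5 at day 2.5 and 1.36, 4.44 and 2.78 at day 4.5 (log2 fold change −4.2, SE 0.651, adjusted p = 4.68e-05), a difference of 6.17 (adjusted p = 0.000368). RGS2 and DIO2 were the 2 named genes whose difference held in every one of 20 alternatives. Their direction was opposite in the 2 arms, and enzyme libraries lay below all untreated ones at day 2.5 and above all of them at day 4.5. The relative RGS4 rose from 0, 14.4 and 1.25 to 68.3, 164 and 318 (log2 fold change 4.93, SE 0.721, adjusted p = 6.99e-05) with no call without enzyme (7.66, 44.7 and 63.9, then 13, 20.4 and 34.8), and RGS5, a marker of mural cells, from 93.3, 209 and 156 to 658, 1151 and 1014 (log2 fold change 2.46, SE 0.226, adjusted p = 4.25e-08). The RGS4 difference of 5.66 held in 17 of 20 alternatives and that of RGS5, 1.31, in 8 of 20, reaching an adjusted p of 0.43 without line TNNT2.

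Matrix and signalling modulators were among the genes with the widest differences. SMOC1, a secreted calcium-binding protein that modulates BMP signals, came from 0 counts to 73.2, 319.8 and 171, at least 250-fold higher, and untreated from 7.66, 2.68 and 10.1 to 37.5, 44.4 and 37.6 (adjusted p of the difference 0.00587, lost without line TNNT2 at 0.142). CCBE1, a secreted factor of lymphatic and heart development, rose from 4.8, 4.79 and 2.5 to 29.2, 12.1 and 13.4 and fell without enzyme from 20.9, 27.7 and 25.2 to 1.36, 7.99 and 6.95, a difference of 4.35 (adjusted p = 0.00326, up to 0.19 without line TNNT2). Both began below all untreated libraries and ended above them. FYB2 and TUNAR, a long noncoding RNA, went down in untreated cardioids. FYB2 fell without enzyme from 43.9, 51 and 67.9 to 1.36, 0.888 and 3.48 and with enzyme was already at 0.686, 0.799 and 0 at day 2.5. Its enzyme step thus starts from a few counts. TUNAR fell without enzyme from 100.1, 95.7 and 91.4 to 4.78, 1.78 and 2.78 and had 72.6, 19 and 23.3 with it, not called (adjusted p = 0.0994). DNAH2, an axonemal dynein, read 36, 25.1 and 32.6 with enzyme and 5.46, 6.22 and 6.95 without at day 4.5, and PGM5, a cytoskeletal relative of phosphoglucomutase, 23.6, 28.5 and 53 and 23.2, 5.33 and 18.8. SERHL2 also had a called difference, which is uncertain because it shares sequence with SERHL.

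Of 20 retinoid response genes 5 had a called difference of steps, all higher with enzyme, as had 0.824% of all genes tested. With enzyme 11 rose and 1 fell (median 1.71), and without it 4 rose and 4 fell (median 0.11). Over all genes 12.7% rose and 12.2% fell with enzyme, and 13% and 12% without. DHRS3, a retinaldehyde reductase induced by retinoic acid, rose from 16.5, 38.3 and 14.4 to 92.5, 118 and 127 (log2 fold change 2.11, SE 0.354, adjusted p = 0.000117) where untreated values were 68.9, 101 and 70.1 at day 2.5 and 80.5, 80.8 and 80.0 at day 4.5, a difference of 2.22 (adjusted p = 0.0169). RARB, a retinoic acid receptor and target, rose from 2.75, 6.39 and 1.25 to 24.8, 36.3 and 30.3 (log2 fold change 2.98, SE 0.477, adjusted p = 6.44e-05) beside 10.7, 15.2 and 26.9 at day 2.5 and 13, 17.8 and 25 at day 4.5, a difference of 3.03 (adjusted p = 0.0125). In both, the enzyme libraries began below all untreated ones. MEIS1 and MEIS2, cofactors of HOX proteins, had differences of 1.98 (adjusted p = 0.00705) and 1.73 (adjusted p = 0.0184), MEIS2 going from 94.7, 261 and 141 to 795, 1493 and 1085 against 556, 609 and 514 untreated. HOXB2, an anterior HOX gene, went from 0.686, 2.4 and 1.25 to 22.3, 33.7 and 41.9 (difference 3.81, adjusted p = 0.0322). The differences held in 14 of 20 alternatives for DHRS3, 16 of 20 for RARB, 17 of 20 for MEIS1, 12 of 20 for MEIS2 and 9 of 20 for HOXB2, with a highest adjusted p of 0.511 without line TNNI1 for HOXB2 and 0.509 without line TNNT2 for MEIS2. The 5 calls became 1 without the day 2.5 enzyme library of line TNNT2 or without line TNNI1, and 0 without line TNNT2. They were 2 without the day 2.5 enzyme library of line TNNI1 or the day 2.5 untreated library of line WT. They were 3 without the day 4.5 enzyme library of line TNNT2, the day 4.5 untreated library of line WT or TNNT2, the day 2.5 untreated library of line TNNT2, or the line block.

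Of 20 BMP genes 9 rose with enzyme and none fell, beside 8 and 3 without. BMP5, a BMP ligand, rose from 6.86, 20.8 and 11.2 to 175, 362 and 267 (log2 fold change 4.2, SE 0.274, adjusted p = 2.36e-10) against 23, 23.3 and 37 at day 2.5 and 133, 194 and 166 at day 4.5, a difference of 1.81 (adjusted p = 0.0101, up to 0.43 without line TNNT2). BMPER, a secreted BMP modulator, rose from 72.8, 76.7 and 81.2 to 136, 219.5 and 186 (log2 fold change 1.04, SE 0.21, adjusted p = 0.000782) and fell without enzyme from 132, 113 and 119 to 61.4, 65.7 and 72.3 (log2 fold change −1, SE 0.213, adjusted p = 0.00116), a difference of 2.05 (adjusted p = 0.000611, lost without line TNNT2 at 0.0864). BAMBI, a decoy receptor, rose from 11, 35.9 and 26.2 to 119, 284 and 201 (log2 fold change 2.87, SE 0.279, adjusted p = 9.51e-08), with no called difference. BMPER thus moved in opposite directions in the 2 arms. Of 18 FGF and ERK genes 5 rose and 2 fell (0 without the day 4.5 enzyme library of line WT or TNNT2, the day 2.5 one of line TNNI1, or line TNNT2). Without enzyme 3 of the 18 rose and 4 fell. At day 4.5, 12 lay above all untreated libraries, a position held by 12.7% of all genes, and none below. At day 2.5, 8 were already above (6.79% of all genes) and 1 was below. DUSP6, a feedback phosphatase of ERK, rose from 318, 346 and 345 to 987, 1334 and 1016 (log2 fold change 1.54, SE 0.247, adjusted p = 7.55e-05) where untreated cardioids had 324, 587 and 308. It was above all untreated libraries on both days. FGF10, a ligand of the second heart field, rose from 4.12, 8.79 and 5.62 to 55.9, 66.5 and 53 (log2 fold change 3.07, SE 0.516, adjusted p = 0.000138) beside 7.15, 15.2 and 16.3 at day 2.5 and 15, 8.88 and 18.8 at day 4.5, with a difference of 3.03 (adjusted p = 0.0388) that held in 8 of 20 alternatives and reached an adjusted p of 0.22 without line TNNT2.

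GATA6, a partner of GATA4, rose from 37.7, 28.8 and 25.6 to 52.1, 90.7 and 121 with enzyme (log2 fold change 1.29, SE 0.266, adjusted p = 0.000935, and up to 0.0657 without line TNNT2) and read 81.2, 108 and 103 at day 2.5 and 59.4, 100.4 and 88.3 at day 4.5 without, a difference of 1.67 (adjusted p = 0.0181) that held in 13 of 20 alternatives and reached an adjusted p of 0.43 without line TNNT2. Cell adhesion genes divided. Of 20 epithelial and mesenchymal transition genes 7 rose and 5 fell with enzyme, beside 2 and 7 without, and the 5 became 2 without line WT and 3 without line TNNT2. NCAM1, a neural and cardiac adhesion molecule, rose from 124, 231 and 132 to 494, 573 and 399 (log2 fold change 1.44, SE 0.174, adjusted p = 1.77e-06) against 276, 333 and 331 at day 2.5 and 262, 344 and 279 at day 4.5, a difference of 1.66 (adjusted p = 0.000611, up to 0.097 without line TNNT2). NCAM1 went from below to above all untreated libraries. TWIST1, a mesenchymal transcription factor, rose from 35.7, 7.19 and 20.6 to 177, 57.9 and 237 (log2 fold change 2.72, SE 0.505, adjusted p = 0.000596), and KRT18, a keratin of simple epithelia, fell from 650.0, 1229 and 777 to 241, 199.6 and 137 (log2 fold change −2.35, SE 0.27, adjusted p = 1.33e-06). CRB2, a polarity protein, rose from 30.9, 60.7 and 39.3 to 179, 120.1 and 169, a difference of 1.82 (adjusted p = 0.024, up to 0.455 without line TNNI1).

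CDH2, N-cadherin, which joins heart muscle cells, moved the other way. It read 229, 161 and 244 at day 2.5 and 186, 283 and 209 at day 4.5 with enzyme (adjusted p = 0.924) and rose from 225, 179 and 315 to 739, 695 and 634 without (log2 fold change 1.41, SE 0.231, adjusted p = 8.43e-05), a difference of −1.45 (adjusted p = 0.0205) that held in 10 of 20 alternatives and reached an adjusted p of 0.444 without line TNNI1. CDH11 and VIM, both mesenchymal, fell without enzyme and were not called with it. VIM read 868, 1379 and 937 at day 2.5 and 1288, 1285 and 1128 at day 4.5 with enzyme against 1747, 2674 and 3016 at day 2.5 and 847, 1354 and 1469 at day 4.5, a difference of 1.23 (adjusted p = 0.0134, up to 0.247 without line TNNI1). CDH11 read 198, 389.8 and 258 at day 2.5 and 298, 158 and 289.8 at day 4.5 against 208, 293 and 261 at day 2.5 and 44.4, 87 and 105 at day 4.5 (difference 1.61, adjusted p = 0.0417, held in 6 of 20 alternatives, up to 0.604 without line TNNI1).

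Genes that rose without enzyme and not with it included TRH, the thyrotropin-releasing hormone precursor. It read 1.37, 3.2 and 4.37 at day 2.5 and 4.96, 6.05 and 2.91 at day 4.5 with enzyme and 1.02, 1.79 and 3.93 at day 2.5 and 95.5, 57.7 and 53.5 at day 4.5 without, a difference of −4.35 (adjusted p = 0.0281), which held in 9 of 20 alternatives and reached an adjusted p of 0.354 without line TNNT2. CASZ1, a zinc finger factor needed for cardiomyocytes, read 2.75, 6.39 and 6.25 at day 2.5 and 5.59, 24.2 and 12.2 at day 4.5 (adjusted p = 0.058) against 143, 131 and 76.5 untreated, a difference of −3.13 (adjusted p = 0.0109, up to 0.274 without line TNNT2). At day 4.5 no enzyme library reached the untreated values of either gene. COL14A1, a fibril-associated collagen, had 0 counts in untreated cardioids at day 2.5 and 1.36, 37.3 and 36.2 CPM at day 4.5, with low values in line TNNI1, against 2.75, 0.799 and 4.37 at day 2.5 and 1.86, 2.59 and 1.16 at day 4.5 with enzyme. Its called difference (adjusted p = 0.0193) held in 12 of 19 alternatives and reached an adjusted p of 0.48 without line TNNT2. RCAN2, a calcineurin regulator, fell with enzyme (46.7, 20.0 and 41.8, then 16.1, 22.5 and 8.73) and rose without it (13.3, 12.5 and 23.6, then 49.1, 38.2 and 32.7), a difference of −2.51 (adjusted p = 0.00849, up to 0.37 without line TNNI1). In line WT its enzyme values did not fall. LRP8, a reelin receptor, fell from 114, 88.7 and 117 to 16.1, 16.4 and 16.3 (log2 fold change −2.88, SE 0.374, adjusted p = 5.05e-06) and was not called without (85.3, 60.8 and 68.4, then 106, 35.5 and 27.8). The LRP8 difference of −2.34 (adjusted p = 0.0164) held in 13 of 20 alternatives and reached an adjusted p of 0.193 without line TNNT2.

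Of 17 tested genes of hyaluronan synthesis, turnover and binding 4 rose and 1 fell with enzyme, beside 4 and 5 without. Over all genes the enzyme step called 12.7% higher and 12.2% lower, so these small counts say little about the list. VCAN and HAPLN1, which bind hyaluronan, were among those that rose, HMMR fell, and the synthase HAS2 was not called. HAS2, the main synthase (ENSG00000170961), read 647, 1762 and 682 at day 2.5 and 893, 862 and 711 at day 4.5 with enzyme (log2 fold change −0.49, adjusted p = 0.213), and the value is high in line WT at day 2.5. Without that library the log2 fold change was 0.16, with no call. Without the day 2.5 enzyme library of line TNNI1 it was −0.80 and called (adjusted p = 0.0321). None of the other 12 alternatives called it. Without enzyme HAS2 fell from 765, 1031 and 953 to 459, 398 and 331 (log2 fold change −1.35, SE 0.28, adjusted p = 0.00113), and all 3 enzyme libraries lay above these at day 4.5. The difference of steps was not called (adjusted p = 0.432). VCAN, versican, the large proteoglycan that binds hyaluronan, rose from 327, 421 and 394 to 1813, 3989 and 2732 (log2 fold change 2.73, SE 0.291, adjusted p = 6.51e-07) beside 555, 650.2 and 994 at day 2.5 and 2448, 2109 and 2354 at day 4.5. HAPLN1, the link protein that holds versican to hyaluronan, rose from 152, 145 and 212 to 1113, 1008 and 1619 (log2 fold change 2.7, SE 0.212, adjusted p = 4.65e-09) and ended above all untreated libraries (427, 504 and 636), a difference of 1.15 (adjusted p = 0.0448) that held in 6 of 20 alternatives and reached an adjusted p of 0.37 without line TNNI1. HMMR, a hyaluronan receptor and spindle protein, fell from 213, 112 and 194 to 86.9, 30.2 and 54.7 (log2 fold change −1.75, SE 0.318, adjusted p = 0.000295).

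Several collagens and laminins rose with enzyme. Of 25 interstitial matrix genes 12 rose (7 without line TNNT2) and 4 fell, beside 15 and 4 without. Over all genes the enzyme step called 12.7% higher and 12.2% lower. At day 4.5, 7 of the 25 lay below all untreated libraries and 2 above (8.87% and 12.7% of all genes). FN1, fibronectin, rose from 754, 602 and 859 to 3569, 7618 and 7364 (log2 fold change 2.8, SE 0.312, adjusted p = 1.35e-06), overlapping 2551, 5004 and 4105. COL3A1, a fibrillar collagen, rose from 1.37, 1.6 and 0 to 31, 401 and 218 (log2 fold change 7.3, SE 0.615, adjusted p = 6.76e-08), and COL1A1 from 62.5, 112 and 77.4 to 479, 621 and 627 (log2 fold change 2.6, SE 0.28, adjusted p = 6.27e-07), below all untreated libraries (707, 1051 and 1463). COL3A1 overlapped the untreated libraries. BGN, biglycan, fell from 89.2, 87.1 and 68.7 to 13.7, 2.59 and 8.73 (log2 fold change −3.58, SE 0.657, adjusted p = 0.000445). COL6A1, a beaded-filament collagen, was not called with enzyme (321, 502 and 396, then 189, 649 and 376) and rose without from 323, 531 and 456 to 736, 1196 and 1171 (log2 fold change 1.11, SE 0.184, adjusted p = 9.54e-05), a difference of −1.39 (adjusted p = 0.0056) that ended without the line block (0.342). Of 20 basement membrane genes 8 rose and 3 fell (1 without the day 4.5 enzyme library of line TNNT2, line TNNI1 or line TNNT2). Without enzyme 9 rose and 1 fell, and the medians were 0.07 with enzyme and 0.71 without. At day 4.5, 9 of the 20 lay below all untreated libraries and none above (8.87% and 12.7% of all genes). At day 2.5, 4 were below (6.7%), and 2 were below on both days. LAMA4, a laminin chain of vessels and muscle, rose from 1.37, 0 and 0 to 51.5, 118 and 114, a ratio of 200.0 with an interval of 55 to 1660.0 (adjusted p = 1.77e-06). NID2, a nidogen, rose from 4.8, 22.4 and 3.12 to 137, 322 and 158 (log2 fold change 4.24, SE 0.367, adjusted p = 4.25e-08). HSPG2, perlecan, fell from 52.8, 54.3 and 39.3 to 29.8, 22.5 and 22.1 (log2 fold change −1.17, SE 0.351, adjusted p = 0.0173, and up to 0.129 without line WT).

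Of 19 tested sterol synthesis genes 14 fell with enzyme and 1 rose (median −1.15), beside 3 and 2 without (median −0.23). The number that fell rests in part on single lines: it was 9 without the day 2.5 enzyme library of line TNNT2, 7 without line TNNT2, 9 without line TNNI1 and 9 in a fit on the compared libraries alone. No difference of steps was called in edgeR, beside 1 in DESeq2 and 5 with no filter on low counts. Calls numbered 1 without the day 4.5 and 4 without the day 2.5 enzyme library of line WT, and 2 without that line. At day 4.5, 17 of the 19 lay below all untreated libraries and 1 above, beside 8.87% and 12.7% of all genes. Already at day 2.5, 5 were below (6.7% of all genes), and these 5 were below on both days. FDPS, farnesyl diphosphate synthase, fell from 388, 429 and 418 to 143, 124 and 140.3 (log2 fold change −1.79, SE 0.196, adjusted p = 5.33e-07) and without enzyme from 439.7, 492 and 523 to 347, 226 and 273 (log2 fold change −0.92, SE 0.19, adjusted p = 0.000918). ACAT2, an acetyl-CoA acetyltransferase of the cytosol, fell from 187, 158 and 230.4 to 53.4, 44.1 and 32.6 (log2 fold change −2.33, SE 0.321, adjusted p = 1.28e-05) beside 118, 146 and 100.1 untreated. In both genes all 3 enzyme libraries ended below all untreated ones. The exception was SC5D, which rose from 115, 95.9 and 156 to 472, 828 and 548 (log2 fold change 2.13, SE 0.299, adjusted p = 2.08e-05). Summed over the list, enzyme libraries went from 3247, 2445 and 3970.0 to 2014, 2430.3 and 2022, and in line WT this sum was nearly the same on both days.

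Glycolysis and respiration genes were called with enzyme at shares near those of all genes tested, 12.7% higher and 12.2% lower. Of 19 glycolysis and hypoxia genes 2 rose and 2 fell, beside 6 and 0 without, and 3 of them differed between the steps. The 2 that fell became 0 without line WT, its day 2.5 enzyme library or the day 4.5 one of line TNNI1, and 5 without the day 2.5 one of line TNNT2 or the filter on low counts. LDHA, lactate dehydrogenase, read 476, 284 and 255 at day 2.5 and 375, 375 and 238 at day 4.5 with enzyme and 195, 93.9 and 97.6 at day 2.5 and 639, 169.6 and 279.6 at day 4.5 without (difference −1.47, adjusted p = 0.0419). BNIP3, a hypoxia-induced mitophagy receptor, read 152, 83.1 and 69.3 at day 2.5 and 116, 122 and 113 at day 4.5 against 36.8, 42 and 24.7 at day 2.5 and 219.7, 82.6 and 93.9 at day 4.5 (difference −1.62, adjusted p = 0.0156), and P4HA1, a collagen prolyl hydroxylase, differed by −1.51 (adjusted p = 0.0281). LDHA and BNIP3 were above all untreated libraries at day 2.5 and overlapped them at day 4.5. These calls held in 6 of 20, 11 of 20 and 8 of 20 alternatives and reached an adjusted p of 0.536 without line TNNI1, 0.604 without line TNNI1 and 0.604 without line TNNI1. PDK1, which limits pyruvate entry to mitochondria, rose from 35.7, 12.8 and 24.4 to 96.8, 201 and 109 (log2 fold change 2.27, SE 0.355, adjusted p = 8.98e-05) and stayed below 514, 454 and 398. VEGFA, the vascular growth factor, rose from 40.5, 19.2 and 10.6 to 96.2, 115 and 71 (log2 fold change 1.96, SE 0.384, adjusted p = 0.000877), and PKM fell from 1780.4, 2899 and 1509 to 1012, 861 and 1351 (log2 fold change −1.21, SE 0.365, adjusted p = 0.0206, and up to 0.234 without the day 2.5 enzyme library of line WT).

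Of 27 respiratory chain and fatty acid oxidation genes 3 rose and 4 fell with enzyme, where 14 rose and none fell without. The 3 became 1 without the day 4.5 enzyme library of line TNNT2 or without line WT. The 4 became 2 without the day 4.5 enzyme library of line TNNI1 or TNNT2, the day 2.5 one of line TNNT2, line TNNI1 or the filter, and 1 without line TNNT2 or in a fit on the compared libraries alone. None had a called difference in edgeR, beside 1 in DESeq2 and 3 with no filter on low counts. At day 4.5, 21 of them lay below all untreated libraries, a position held by 8.87% of all genes, and 1 did so at day 2.5 (6.7%). PPARGC1A, a coactivator of mitochondrial genes, rose from 0, 0 and 0.625 to 26.1, 51 and 26.8, a ratio of 141 with an interval of 25 to 5620.0 (adjusted p = 1.08e-07), against 64.2, 67.5 and 57. UQCRH, a complex III subunit, fell from 297, 296 and 350.4 to 201, 203 and 234 (log2 fold change −0.74, SE 0.176, adjusted p = 0.0033, and up to 0.056 without line TNNT2) and read 316, 274 and 276 at day 2.5 and 342, 282 and 306 at day 4.5 without enzyme.

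**Figure D5:**
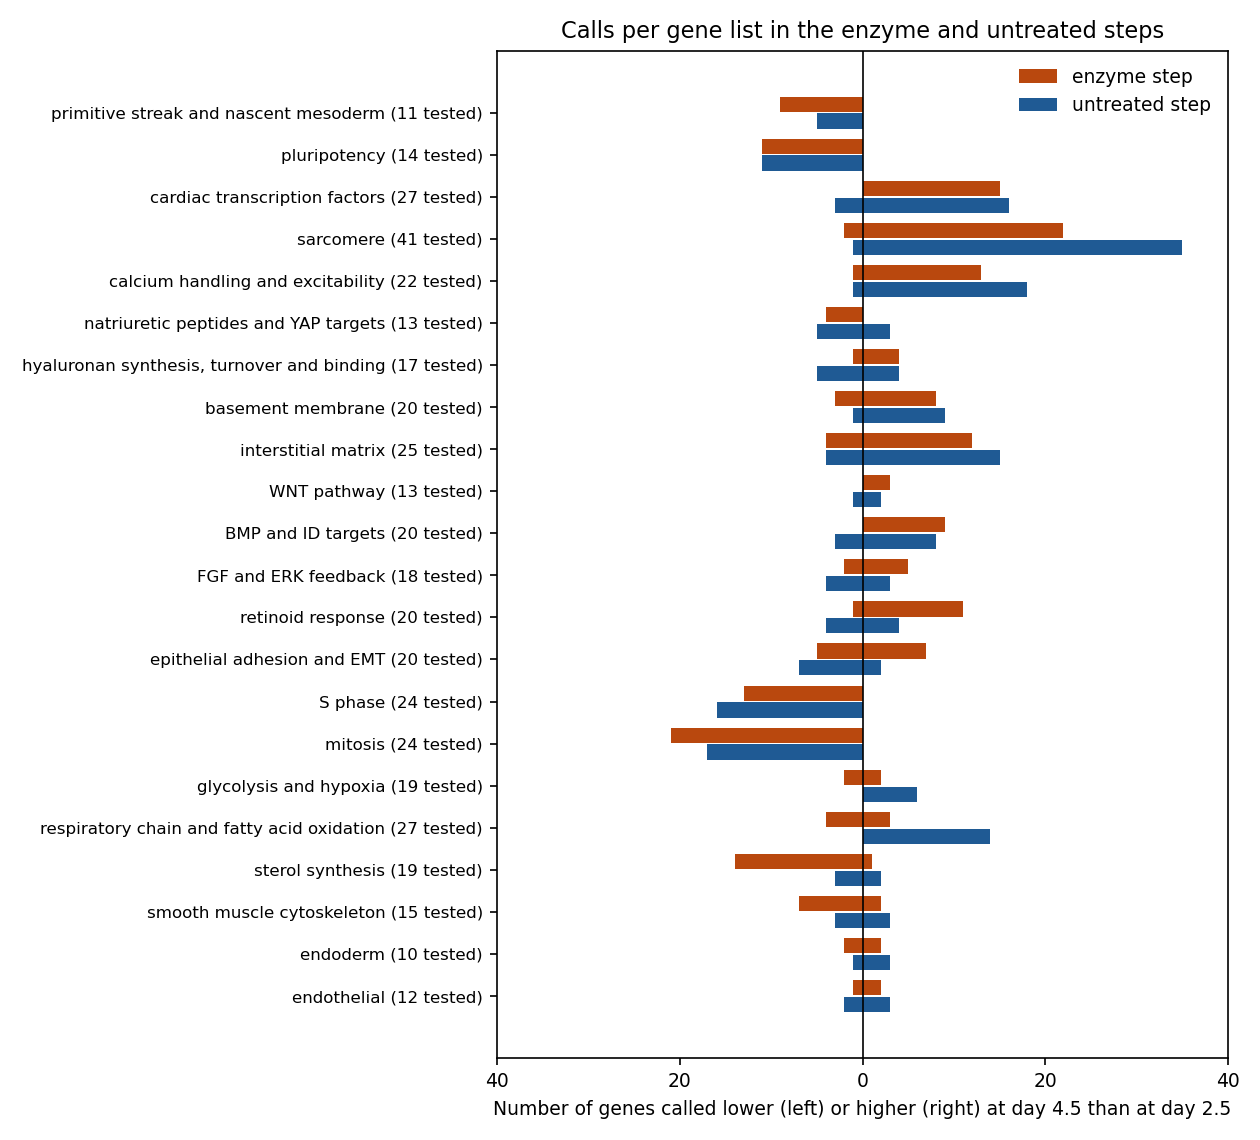
Number of genes called higher (to the right of 0) and lower (to the left) from day 2.5 to day 4.5 in each list with at least 10 tested genes, with enzyme and without. Mitosis and S phase genes were called lower in both, sterol synthesis genes were called lower mostly with enzyme, and sarcomere and calcium genes were called higher more often without.

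Proliferation genes fell in both arms. Of 24 mitosis genes 21 fell with enzyme and 17 without, with medians of −1.26 and −1.22. Of 24 S phase genes 13 and 16 fell, with medians of −1.19 and −1.41. The 21 mitosis genes became 13 without the day 4.5 enzyme library of line WT, 12 without that of line TNNT2, 10 without line WT and 11 without line TNNT2. None rose, none had a called difference, and none was separated from untreated at day 4.5 in either list. AURKA, a spindle kinase, fell from 347, 245 and 288 to 143, 53.6 and 80.9 (log2 fold change −1.86, SE 0.26, adjusted p = 1.19e-05), and CDC6, which licenses replication origins, from 121, 83.9 and 107 to 46.5, 10.4 and 18 (log2 fold change −2.24, SE 0.32, adjusted p = 1.55e-05). TOP2A, a topoisomerase of dividing cells, went from 2336, 2913 and 2700.4 to 1989.7, 477 and 1079.6 (log2 fold change −1.39, SE 0.4, adjusted p = 0.0161, and up to 0.292 without line WT), and MKI67 from 874, 867 and 786 to 648, 146 and 352 (log2 fold change −1.39, SE 0.369, adjusted p = 0.00934, and up to 0.179 without line WT). The fall was least in line TNNI1 and greatest in line WT, as the sums over the mitosis list show: 7876, 7829.7 and 8150.5 at day 2.5 and 5719.7, 1572 and 3441 at day 4.5. Untreated cardioids had 2349.7, 3218 and 4100.4 at day 4.5, with line TNNI1 the lowest. The enzyme library with the highest mitosis sum at day 4.5 was thus the one with the lowest sarcomere sum.

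Of 15 smooth muscle cytoskeleton genes 7 fell and 2 rose with enzyme, beside 3 and 3 without. The 7 became 4 without the day 4.5 enzyme library of line TNNT2, 4 without line TNNI1 and 3 without line WT. At day 4.5, 12 were below all untreated libraries, a position held by 8.87% of all genes. Already at day 2.5, 4 were below (6.7% of all genes), and these 4 were below on both days. TAGLN, transgelin, an actin-binding protein of early heart and smooth muscle, fell from 46, 45.5 and 48.7 to 8.69, 6.91 and 9.89 (log2 fold change −2.59, SE 0.47, adjusted p = 0.000364) and read 74.6, 69.8 and 83 at day 2.5 and 108, 94.1 and 79.3 at day 4.5 without enzyme. The difference of −2.78 (adjusted p = 0.0198) held in 11 of 20 alternatives and reached an adjusted p of 0.293 without line TNNT2. VCL, vinculin, which links actin to adhesions, fell from 176, 308 and 194 to 91.9, 158 and 144 (log2 fold change −0.96, SE 0.207, adjusted p = 0.00143). Of 13 natriuretic peptide and YAP target genes 4 fell (2 without line WT) and none rose with enzyme, where 12.2% and 12.7% of all genes did. Without enzyme 5 of them fell and 3 rose. At day 4.5, 7 lay below all untreated libraries and 1 above (8.87% and 12.7% of all genes), and 2 were below at day 2.5 (6.7%). TEAD4, a DNA partner of YAP, fell from 17.2, 39.1 and 16.2 to 1.86, 0.864 and 2.91 (log2 fold change −3.7, SE 0.631, adjusted p = 0.000138), and AMOTL1, a YAP target and inhibitor, from 207, 209 and 234 to 95, 21.6 and 70.4 (log2 fold change −1.97, SE 0.368, adjusted p = 0.00051). NPPA and NPPB, the natriuretic peptides of heart muscle, had 0 counts in every enzyme library at day 4.5, while untreated cardioids had 107, 1.78 and 6.26 and 28.7, 3.55 and 11.8. A count of 0 over the group of day 4.5 allows up to 3 counts.

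The markers of other cell types are given for the enzyme libraries of day 4.5, first a few defining ones and then the whole lists. Summed CPM was 10.4 to 21.5 for 5 endothelial markers (18.4 to 43.1 untreated), 13.8 to 36 for 6 of endoderm (43.1 to 160.0) and 21.7 to 57 for 5 of smooth muscle and fibroblasts (123 to 214). It was 0 to 4.96 for 4 epicardial markers (2.73 to 54.2), 1.73 to 5.59 for 5 of paraxial mesoderm (0.682 to 1.39), and at most 1.24 for the 3 neural and 4 blood markers. Over the whole endothelial list of 18 genes the sum was 814, 648 and 702, above every untreated library (331, 455 and 419). FLT1 and KDR, both VEGF receptors, gave most of it, FLT1 with 552, 366 and 405 against 171, 236 and 197. The 12 neural genes summed to 366, 710.4 and 410.3 against 1099, 854 and 624. NES, nestin, an intermediate filament that is not limited to neural cells, gave 297, 635 and 329 of this. The whole list of 10 smooth muscle and fibroblast genes summed to 1219, 2239 and 1905 against 1418, 2263 and 2568. The 14 endoderm genes summed to 172, 92.5 and 113 against 357, 123 and 108. The sums were 11.8, 7.78 and 16.9 against 6.82, 45.3 and 90.4 for 8 epicardial genes, 49.6, 13 and 29.7 against 13.6, 13.3 and 11.8 for 13 of presomitic and paraxial mesoderm, and 5.59, 4.32 and 8.15 against 3.41, 1.78 and 2.78 for 8 of blood. The part of these cell types in the results was not tested. Of 12 tested endothelial genes 2 rose, TEK and LMO2, and 1 fell, ETV2, where 12.7% and 12.2% of all genes did. Without enzyme 3 rose and 2 fell. TEK, an angiopoietin receptor, went from 0.686, 0 and 0.625 to 2.48, 9.51 and 8.73, a ratio of 14.4 with an interval of 3.66 to 124. LMO2, a blood and vessel cofactor, went from 4.8, 0.799 and 9.37 to 37.9, 68.3 and 90.2 (log2 fold change 3.48, SE 0.448, adjusted p = 4.22e-06), above the untreated 9.55, 21.3 and 23.6. KDR, a VEGF receptor of vessels and cardiac progenitors, was not called with enzyme, with 111, 157 and 147 at day 2.5 and 177, 178 and 157 at day 4.5, and fell without from 166, 278 and 232 to 109, 141 and 115. Its difference of 1.16 (adjusted p = 0.0396) held in 6 of 20 alternatives and reached an adjusted p of 0.43 without line TNNT2. DCX, a neuronal microtubule protein, rose from 1.37, 0 and 1.25 to 41, 15.6 and 59.9 (log2 fold change 5.09, SE 0.657, adjusted p = 4.23e-06) while the neural factors PAX6 and SOX1 had 0 counts. The epicardial markers WT1, TBX18 and UPK3B and the blood markers HBG1, HBE1 and PTPRC also had 0 counts in the enzyme libraries. Of 7 smooth muscle and fibroblast genes 4 rose with enzyme, RGS5, LUM, COL1A1 and COL3A1, and none fell. Without enzyme 4 rose and 1 fell.

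The enzyme step was last compared with that of HAS2-KO cardioids, in a fit over all 65 libraries without a line block. The comparison of the steps called 81 genes higher (0.577%) and 82 lower (0.584%) of 14047 with enzyme. The part of the series and the perturbation change together here and cannot be told apart. The targeted gene does not check the edit, since 3′ tags can come from outside the changed part, and HAS2 averaged 582 ± 174 and 351 ± 74.5 CPM in the knockout libraries at days 2.5 and 4.5. The knockout libraries had little MYH6 or TNNT2 at day 2.5 either, and then more than the enzyme libraries: MYH6 averaged 0.106 ± 0.26 and 3754 ± 2021 CPM at days 2.5 and 4.5 (mean ± SD, n = 6) and TNNT2 0.185 ± 0.454 and 3327 ± 1275. Several of these 6 libraries a day are repeats of clone cl4, and the fit had no clone term. One of them, at day 2.5, held 831062 counts, the lowest total of the series. MYL7, not called with enzyme, averaged 27.1 ± 10.0 and 380.3 ± 265 in the knockout, a difference of steps of −4.25 (adjusted p = 0.00275). MYL3 averaged 4.43 ± 1.89 and 108 ± 108 there and differed by −5.07 (adjusted p = 0.0368, held in 15 of 21 alternatives, up to 0.763 without the day 2.5 enzyme library of line WT). HRH2, a histamine receptor, differed by −5.93 (adjusted p = 5.93e-05) and NR2F2, the nuclear receptor of atrial and venous cells, by −4.13 (adjusted p = 0.00343). JPH2, which couples the membrane to calcium stores, differed by −3.28 (adjusted p = 0.0231, up to 0.342 without the day 2.5 enzyme library of line WT). The calls of MYL7, HRH2, NR2F2 and the transcript ENSG00000228835, which differed by 3.96, held in all 21 alternatives each. Without the day 4.5 enzyme library of line TNNI1 the comparison called 39 genes in all.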

How the data were processed

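RNA of the cardioids was sequenced with the QuantSeq 3′ FWD kit, per the labels' protocols. The deposited table holds whole-number counts per gene identifier, not normalized, made by the authors with featureCounts of Subread 1.6.2 on hg38 (GRCh38), per the submitters' processing notes. The aligner, the annotation, the strand setting and the treatment of multiply mapped reads are not given in the sources used here. All 58735 identifiers were found in GENCODE 29, which supplied 58207 symbols and the coordinates, and 4 columns that belong to no listed sample were not used.

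The main model was fitted with edgeR 4.0.16 (R 4.3.3) on the 24 libraries of the enzyme part of the series, since a shared fit gives 1 estimate of the spread, with TMM scaling, filterByExpr at a minimum count of 10, robust quasi-likelihood dispersion, 8 groups and the line as a block. Same-numbered samples come from the same line, so the line pairs them. Of 18 same-line pairs of groups, 7 had deviations that correlated above 0.1 (range −0.102 to 0.373). The highest was between enzyme and untreated libraries of day 2.5. Between the enzyme libraries of days 2.5 and 4.5 the correlation was 0.122, 0.063 and −0.002 in lines TNNI1, WT and TNNT2. The pairing was thus hardly visible in the step described. The knockout comparison used all 65 libraries in 16 groups. P-values were adjusted by Benjamini-Hochberg over all genes tested. The labels speak of at least 3 biological replicates a condition without saying what separates them, so p-values measure the spread between these samples. Standard errors are the log2 fold change divided by the square root of the F value. Genes without a count in a group are given as a bound against 3 counts over the group, and those with 1 to 3 counts as a ratio with an exact 95% interval; bounds and intervals cover counting error only. Summed CPM add the scaled values of a list's members.

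The members and gene lists were chosen with earlier results of these data known. Named genes were the 15 highest and 15 lowest log2 fold changes of the enzyme step with groups that did not overlap and a mean of at least 20 CPM, the 10 highest and 10 lowest of the difference of steps with 1 sign in 3 of 3 lines, the 5 highest and 5 lowest against the knockout, and in each list its first 3 members, the 4 largest called changes and every member with a called difference; of these the text gives a part, and others are named from the lists. The alternatives were no block, RLE scaling, no filter, DESeq2 1.42.0, the compared libraries alone, and each library or line left out. The code was tested on simulated data. Promoters are from RefSeq. Some members of the sterol synthesis list are not reported here.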

Additional observations from a re-analysis of the deposited data

Results flagged for a closer look

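The difference between the enzyme step and the untreated step was tested itself in edgeR and called for 148 genes, and that between the enzyme step and the knockout step for 163. Values are differences of log2 fold changes, the enzyme step first. Those of SMOC1, which had no enzyme count at day 2.5, and of COL14A1, which had no untreated count then, depend on the prior count of the fit and are no bounds. FYB2 had hardly any enzyme counts at day 2.5, so the size of its difference is uncertain too.

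Higher in the enzyme step than in the untreated step were SMOC1 8.58, FYB2 7.29, DIO2 6.17, RGS4 5.66, PGM5 5.15, CCBE1 4.35, SERHL2 4.31, RGS2 4.28, DNAH2 4.18, TUNAR 4.16, HAND2 3.27, GATA6 1.67, LEF1 3.20, WNT5A 1.92, BMP5 1.81, BMPER 2.05, FGF10 3.03, DHRS3 2.22, RARB 3.03, HOXB2 3.81, MEIS1 1.98, MEIS2 1.73, VIM 1.23, CRB2 1.82, CDH11 1.61, NCAM1 1.66, HAPLN1 1.15, KDR 1.16 and RGS5 1.31. Lower were COL14A1 −8.64, TRH −4.35, CASZ1 −3.13, PDE4DIP −3.01, PYGL −2.82, TAGLN −2.78, ENSG00000226900 −2.67, CACNA1C −2.65, RCAN2 −2.51, LRP8 −2.34, CDH2 −1.45, LDHA −1.47, BNIP3 −1.62, P4HA1 −1.51 and COL6A1 −1.39.

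Against the knockout step the enzyme step was higher for GYPE 5.24, ANPEP 4.85, LINC00458 4.83, ENSG00000228835 3.96 and SEMA5B 3.88, and lower for HRH2 −5.93, MYL3 −5.07, MYL7 −4.25, NR2F2 −4.13 and JPH2 −3.28. GYPE shares near-identical copies with other glycophorin genes, and its count is uncertain. SEMA5B and LINC00458 had counts at day 4.5 mostly in line TNNI1.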

How the results depend on the processing

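The enzyme step called 3166 genes, 1720 in a fit on its libraries alone with the line block, and 2889 to 3354 without the block, with RLE scaling, in DESeq2 and without the filter. Leaving out a library or line gave 1632 (without line WT) to 3024, with 2050 without the day 4.5 enzyme library of line TNNT2 and 1755 without that line. The untreated step called 3186 genes, and 1778 (without line TNNI1) to 2617 with a line or library left out. The difference of the steps called 148 genes, 90 without the block, 261 in DESeq2 and 368 without the filter. Leave-outs gave 11 (without line TNNT2) to 247 (without the day 2.5 enzyme library of line WT). The knockout comparison called 163, 329 in DESeq2 and 307 without the filter, and 39 to 195 with a library left out. The comparison of untreated and WT steps called 0 genes, 17 in DESeq2, 70 without the filter and 0 to 3 with a library left out.

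Of 112 called genes named for the enzyme step 99 kept direction and call in every alternative. For the difference of steps 2 of 44 did, RGS2 and DIO2, and for the knockout comparison 4 of 10. Direction turned for MYL7, whose enzyme step ran from −1.32 to 0.03 with a library or line left out (0.03 without the day 4.5 enzyme library of line TNNI1), and for HAS2, from −0.80 to 0.16 (0.16 without the day 2.5 enzyme library of line WT, 0.10 without that line). In the untreated step it turned for TAGLN, from −0.07 (without the day 4.5 untreated library of line TNNI1) to 0.40, and for DHRS3, from −0.27 to 0.13 (without the day 2.5 untreated library of line WT, and 0.09 without that line). Against the knockout SEMA5B read −3.18 without the day 4.5 enzyme library of line TNNI1. The causes were not tested. With totals of 1157056 to 1718211 counts, genes of a few CPM rest on a few counts.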
